A study of Mus musculus with 24 samples.

Results

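The 9 genes described here encode enzymes that turn squalene into cholesterol: Sqle, Lss, Cyp51, Tm7sf2, Sc4mol (now named Msmo1), Nsdhl, Hsd17b7, Ebp and Dhcr7. They were chosen by name as steps of the pathway, and each was found once among the 34436 gene symbols of a table of raw read counts from mouse liver. All 9 passed the filter on low counts, which left 12595 genes for testing. The animals were wild type C57BL/6 mice that ate their diet for 8 weeks, beginning when they were 8 to 10 weeks old. The 5 diets compared were normal chow (NC, 4 libraries), high sucrose (HS, 5 libraries), high sucrose with 2% cholesterol (titled HS_Chol2%, written HS_Chol here, 3 libraries for 4 labelled samples), cholic acid without added cholesterol (CA, 4 libraries) and cholic acid with 2% cholesterol (titled Chol2%_CA, written Chol_CA here, 4 libraries). Cholic acid is a primary bile acid, and it increases the uptake of cholesterol from the gut. A sixth diet, with sucrose, cholesterol and cholic acid together, was not analysed here. The labels number the livers of a diet but do not state that each came from its own animal or cage, so the p-values measure the spread between these samples only.

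Squalene epoxidase (Sqle) puts oxygen on squalene, and lanosterol synthase (Lss) closes the product into the first sterol, lanosterol. Cyp51, Sc4mol, Nsdhl and Hsd17b7 then strip methyl groups from the sterol, Tm7sf2 reduces the double bond that Cyp51 leaves, Ebp moves a double bond, and Dhcr7 reduces a double bond in a last step to cholesterol. In liver these genes are classical targets of SREBP2, a membrane-held transcription factor that is released when the sterol content of the endoplasmic reticulum is low and held back when it is high. SREBP proteins bind DNA weakly on their own and act together with NF-Y, which binds CCAAT, and with Sp1.

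Library totals ran from 6110484 to 10244277 reads, and levels are given as CPM, the reads of a gene per 1000000 reads after scaling of the library size. The libraries differed in how reads followed transcript length: relative to the mean library, longer transcripts had more reads in 12 and fewer in 8, and each diet held both kinds. The 3 HS_Chol libraries had 673 to 900 reads in light-strand tRNA genes per 1000000 reads in heavy-strand mRNA genes of the mitochondrion, against 8.95 to 83.4 in the other 17, a measure of reads assigned to the other strand. The part of this difference in the HS_Chol values was not tested. One sample titled HS has a diet label of normal chow and could not be tied to a column, so each HS library was left out in turn. The summed level of 9 hepatocyte marker genes was highest in NC, at 128700 to 146800 CPM. It was 104200 to 127100 CPM in HS, 98450 to 123200 CPM in CA, 91630 to 100800 CPM in HS_Chol and 72340 to 80260 CPM in Chol_CA. In a piece of whole liver, fewer cells of a type and less RNA per cell cannot be told apart.

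Promoter sequence is shown first, searched for the letters of the NF-Y, Sp1 and sterol element motifs. The part of these motifs in the levels was not tested. RefSeq (GRCm38.p6) gave windows of 300 bases around the start for 8 of the 9 genes, and none for Sqle. CCAAT, searched on both strands, was in a window of all 8, against 37.4% of the 32851 windows of all genes, or 41.1% of 27025 genes when any of a gene's windows counts. Dhcr7 held it only in the third of its 3 windows. The Sp1 letters GGGCGG were also in a window of all 8, against 35.7% of all windows and 38.2% of genes. The strict core of a sterol regulatory element, TCACNCCA, was in the window of Sc4mol alone (4.36% of all windows, 4.97% of genes). The looser core TCACNCNA, which includes the strict core, was in Sc4mol and Nsdhl (11% of all windows, 12.5% of genes). A match of letters is a description and does not show that a protein binds there. The stretches below run 5′ to 3′ on the strand of the gene, and capitals mark 2 things. One is CCAAT, which reads ATTGG where it lies on the other strand. The other is the loose sterol element core. They lie between 210 and 21 bases before the RefSeq start, at chr10:76531395-76531584 (plus strand) for Lss, chr5:4104718-4104907 (minus) for Cyp51, chrX:72918311-72918500 (plus) for Nsdhl, chr1:169969226-169969415 (minus) for Hsd17b7 and chrX:8193533-8193722 (minus) for Ebp. For Sc4mol only the 30 bases around the sterol element are shown, at chr8:64733729-64733758 (minus), because GENCODE places this stretch in the first exon. GENCODE also places the last 29 bases printed for Cyp51, with its CCAAT, and the last 16 printed for Hsd17b7 in an exon.
Lss: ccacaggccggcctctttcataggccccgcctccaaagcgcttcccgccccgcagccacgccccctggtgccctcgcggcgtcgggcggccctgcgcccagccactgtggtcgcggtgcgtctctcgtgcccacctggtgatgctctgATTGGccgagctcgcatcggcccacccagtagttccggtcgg
Cyp51: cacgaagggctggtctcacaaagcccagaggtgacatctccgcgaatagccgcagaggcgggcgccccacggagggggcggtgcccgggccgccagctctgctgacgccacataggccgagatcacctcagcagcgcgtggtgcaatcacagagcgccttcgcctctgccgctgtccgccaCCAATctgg
Sc4mol: ttcTCACTCCAtccgcgcagCCAATgactg
Nsdhl: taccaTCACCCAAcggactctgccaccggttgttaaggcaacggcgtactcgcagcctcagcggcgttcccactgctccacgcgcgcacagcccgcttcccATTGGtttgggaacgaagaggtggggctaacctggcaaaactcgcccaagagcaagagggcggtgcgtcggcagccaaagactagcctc
Hsd17b7: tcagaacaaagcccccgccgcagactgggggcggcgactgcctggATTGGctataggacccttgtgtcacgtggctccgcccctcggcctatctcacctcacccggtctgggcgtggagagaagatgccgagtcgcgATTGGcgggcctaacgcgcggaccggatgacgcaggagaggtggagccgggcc
Ebp: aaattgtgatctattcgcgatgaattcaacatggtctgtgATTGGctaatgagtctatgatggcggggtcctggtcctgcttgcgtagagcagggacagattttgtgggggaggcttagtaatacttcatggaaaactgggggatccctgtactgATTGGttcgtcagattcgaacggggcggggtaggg
Among the genes with a window, Sc4mol and Nsdhl have a match to the sterol element core. CCAAT lies at more than a single place in the windows of Sc4mol, Nsdhl, Hsd17b7 and Ebp, and in the third window of Dhcr7. The printed stretches do not show all of these places.

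Sucrose alone moved none of the 9 genes past the test, while every diet with cholesterol or cholic acid lowered nearly all of them. Against NC, 0 of 9 passed an adjusted p of 0.05 in HS in either direction (edgeR quasi-likelihood test with Benjamini-Hochberg adjustment over all genes), and 2 of 9, Sc4mol and Nsdhl, were lower at an unadjusted p under 0.05, as were 5.56% of all genes. After adjustment, 0.437% of all genes tested were called lower and 0.214% higher in that comparison. In HS_Chol 8 of 9 fell, against 0.564% of all genes called lower. In CA all 9 fell, against 4.61% of all genes, and in Chol_CA all 9 fell, against 9.35%. The median log2 difference of the 9 from NC was -0.29 in HS, -1.74 in HS_Chol, -1.67 in CA and -2.65 in Chol_CA, and that of all genes lay between -0.00147 and 0.0233. These comparisons share the 4 NC libraries.

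**Figure D1:**
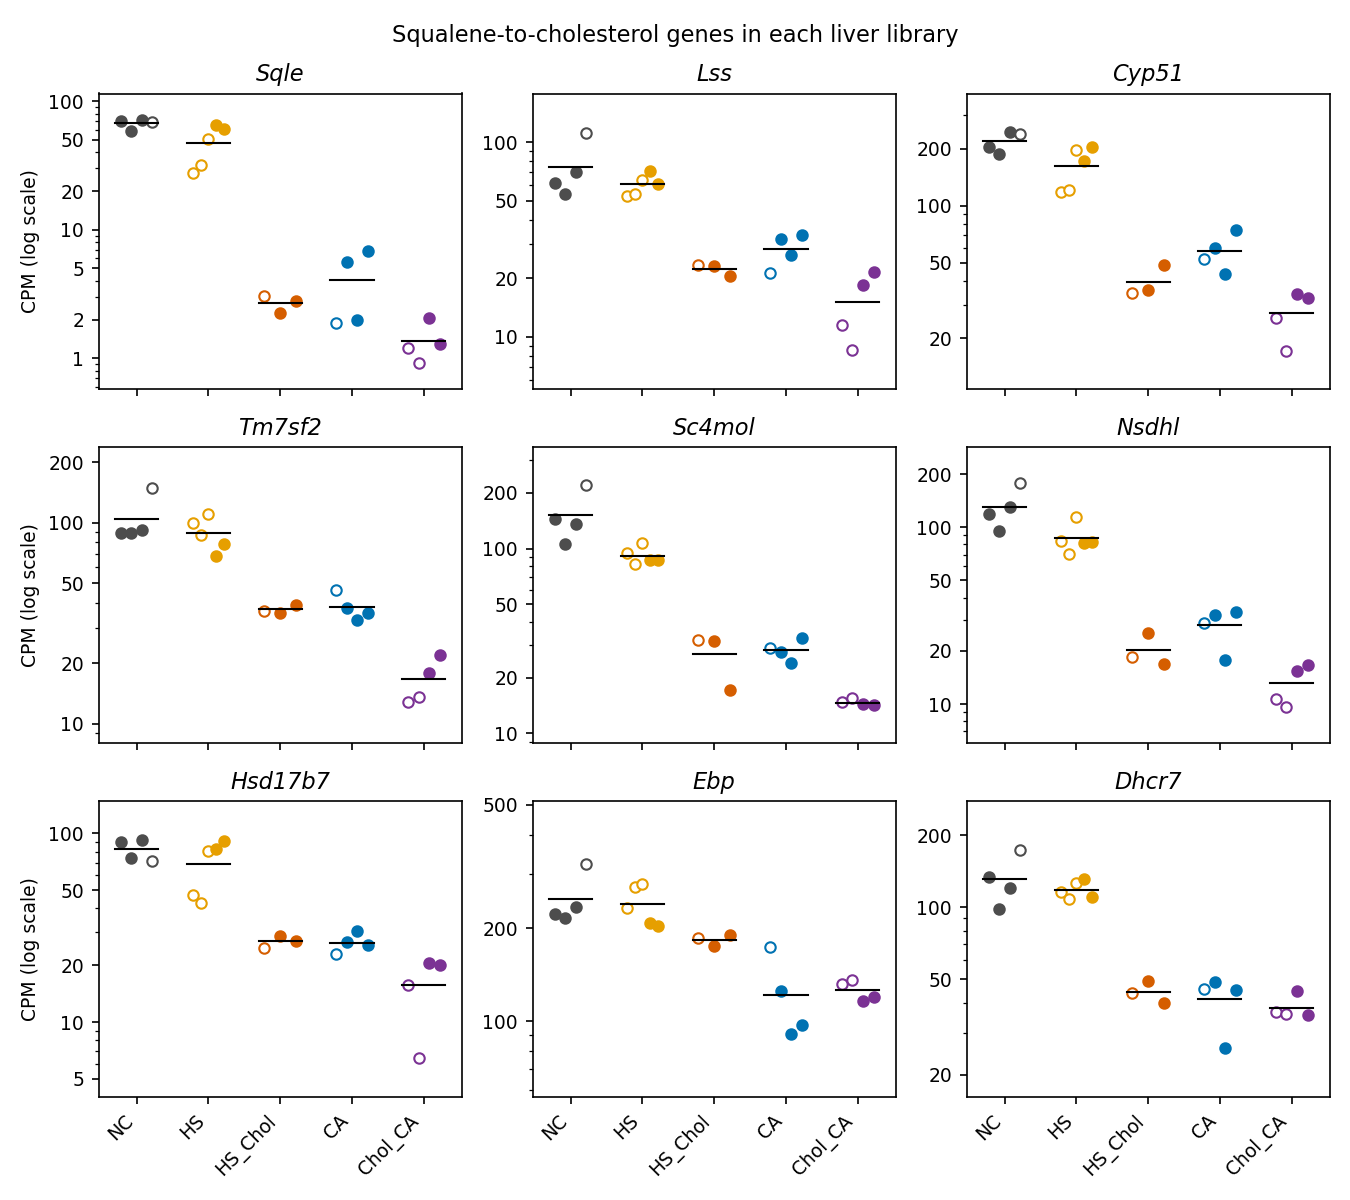
Level of each of the 9 genes in every library (CPM, log axis), by diet; points are libraries, filled where longer transcripts had more reads than in the mean library and open where they had fewer, and black bars are means. In HS_Chol, CA and Chol_CA every library of all 9 genes lies below every NC library.

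Sqle, the epoxidase that commits squalene to sterols, had the widest range. It lies on chromosome 15 from 59315077 to 59331192 (mm10, plus strand), with 11 blocks of exons. Its level was 70.7, 58.9, 71.8 and 69.2 CPM in the NC libraries and 27.6, 31.8, 50.8, 65.3 and 60.6 CPM in HS. HS_Chol had 3.03, 2.27 and 2.79 CPM, CA had 1.88, 5.65, 1.97 and 6.80 CPM, and Chol_CA had 1.19, 0.917, 2.05 and 1.30 CPM. The HS libraries overlapped those of NC, and the libraries of the other 3 diets were all below both. Sqle fell against NC in HS_Chol (log2 difference -4.64 ± 0.43 (SE), adjusted p = 1.4e-06), in CA (16.6-fold lower, -4.05 ± 0.35, adjusted p = 5.1e-07) and in Chol_CA (-5.59 ± 0.40, adjusted p = 2.2e-08). The 4 Chol_CA libraries held 8 to 21 reads of it each, the HS_Chol libraries 15 to 19 and the CA libraries 16 to 64. Its levels in these diets therefore rest on few reads. In HS the log2 difference was -0.52 ± 0.28 and did not pass (adjusted p = 0.516).

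Lss, which makes the sterol ring system, lies on chromosome 10 from 76531588 to 76557138 (plus strand). Its level ran from 54.1 to 111 CPM in NC and from 53.1 to 71.3 CPM in HS. It fell to 20.5 to 23.3 CPM in HS_Chol, 21.3 to 33.1 CPM in CA and 8.60 to 21.4 CPM in Chol_CA, with no library of these diets reaching the NC range. The log2 differences from NC were -1.74 ± 0.28, -1.40 ± 0.24 and -2.30 ± 0.25 in that order. On 381 bases its exons overlap those of 4930483K19Rik on the other strand, a gene with 0 to 2 reads per library.

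The next enzymes take the sterol through the loss of its methyl groups. Cyp51, a cytochrome P450 that takes the first methyl group off lanosterol, lies on chromosome 5 from 4081145 to 4104746 (minus strand). It had 203, 187, 244 and 240 CPM in NC and 118, 120, 197, 173 and 203 CPM in HS. In HS_Chol it had 34.5, 36.0 and 48.6 CPM, in CA 52.2, 59.8, 43.7 and 74.5 CPM, and in Chol_CA 25.4, 17.2, 34.0 and 32.5 CPM. It fell by 2.46 ± 0.26 on the log2 scale in HS_Chol, by 1.93 ± 0.23 in CA and by 3.00 ± 0.24 in Chol_CA. Its exons share 166 bases with Akap9 on the other strand, which had mean levels of 51.0 to 66.0 CPM and was called in no comparison.

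Tm7sf2, a sterol reductase that acts on the product of Cyp51, lies on chromosome 19 from 6062821 to 6068373 (minus strand). Its 4 NC libraries had 89.2, 88.5, 91.7 and 148 CPM, and the HS libraries 99.9, 86.8, 110, 68.3 and 78.6 CPM. HS_Chol had 36.6, 35.7 and 39.2 CPM, CA 46.5, 37.6, 33.0 and 35.5 CPM, and Chol_CA 12.8, 13.6, 18.0 and 22.1 CPM. The HS_Chol and CA libraries lay in one band and the Chol_CA libraries below it without overlap. Its log2 differences from NC were -1.49 ± 0.22, -1.45 ± 0.20 and -2.65 ± 0.21. Part of its exons, 532 bases, is shared with Vps51 on the same strand, whose mean level was 13.9 to 16.3 CPM and which was called in no comparison.

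Sc4mol, Nsdhl and Hsd17b7 work as a complex that removes a further pair of methyl groups by oxidation, decarboxylation and reduction. Sc4mol (chromosome 8, 64718139 to 64733792, minus strand), the oxidase, had 145, 106, 136 and 220 CPM in NC and 94.5, 82.4, 107, 86.1 and 86.7 CPM in HS. It had 32.1, 31.7 and 17.2 CPM in HS_Chol, 28.8, 27.7, 24.1 and 32.8 CPM in CA, and 14.7, 15.5, 14.4 and 14.2 CPM in Chol_CA. The Chol_CA values stood close together and below all others. Its log2 differences from NC were -2.49 ± 0.23, -2.42 ± 0.21 and -3.37 ± 0.22 in the 3 diets. In HS its log2 difference of -0.73 ± 0.18 had an adjusted p of 0.0878, and it passed at 0.0401 without the NC library numbered 1 and at 0.0182 with DESeq2.

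Nsdhl, the decarboxylating dehydrogenase (chromosome X, 72918557 to 72958514, plus strand), ran from 94.7 to 177 CPM in NC and from 70.4 to 115 CPM in HS. It ran from 16.9 to 25.2 CPM in HS_Chol, from 17.8 to 33.4 CPM in CA and from 9.63 to 16.6 CPM in Chol_CA. Only Sqle had larger log2 differences from NC in HS_Chol than Nsdhl (-2.68 ± 0.27), which reached -2.22 ± 0.23 in CA and -3.31 ± 0.25 in Chol_CA. Hsd17b7, the keto reductase of the complex (chromosome 1, 169949535 to 169969241, minus strand), ran from 71.7 to 92.7 CPM in NC and from 42.5 to 91.0 CPM in HS. It fell to 24.6 to 28.7 CPM in HS_Chol (-1.62 ± 0.31), 23.0 to 30.3 CPM in CA (-1.64 ± 0.27) and 6.42 to 20.6 CPM in Chol_CA (-2.38 ± 0.28).

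Ebp and Dhcr7 act late in the pathway. Ebp, the sterol isomerase (chromosome X, 8185329 to 8193512, minus strand), had 222, 215, 234 and 322 CPM in NC and 233, 272, 278, 208 and 203 CPM in HS. It had 186, 175 and 190 CPM in HS_Chol, 174, 125, 91.0 and 97.3 CPM in CA, and 132, 136, 116 and 119 CPM in Chol_CA. All HS_Chol libraries were below all NC libraries, yet the log2 difference of -0.44 ± 0.20 did not pass (adjusted p = 0.377, 95% interval -0.84 to -0.03). Ebp fell in CA (-1.03 ± 0.18, adjusted p = 0.00096) and in Chol_CA (-0.98 ± 0.18, adjusted p = 0.00039). The hepatocyte markers' summed mean level differed from NC by -0.48 on the log2 scale in HS_Chol, -0.33 in CA and -0.81 in Chol_CA, and its part in these values was not tested.

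Dhcr7, the last reductase (chromosome 7, 143823145 to 143848410, plus strand), had 134, 98.6, 121 and 174 CPM in NC and 116, 108, 126, 131 and 111 CPM in HS. It had 44.1, 49.1 and 39.7 CPM in HS_Chol, 45.7, 48.6, 25.9 and 45.3 CPM in CA, and 36.4, 35.9, 44.8 and 35.5 CPM in Chol_CA. The 3 diets overlapped one another and lay below NC and HS. The log2 differences from NC were -1.57 ± 0.20, -1.67 ± 0.18 and -1.79 ± 0.19.

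**Figure D2:**
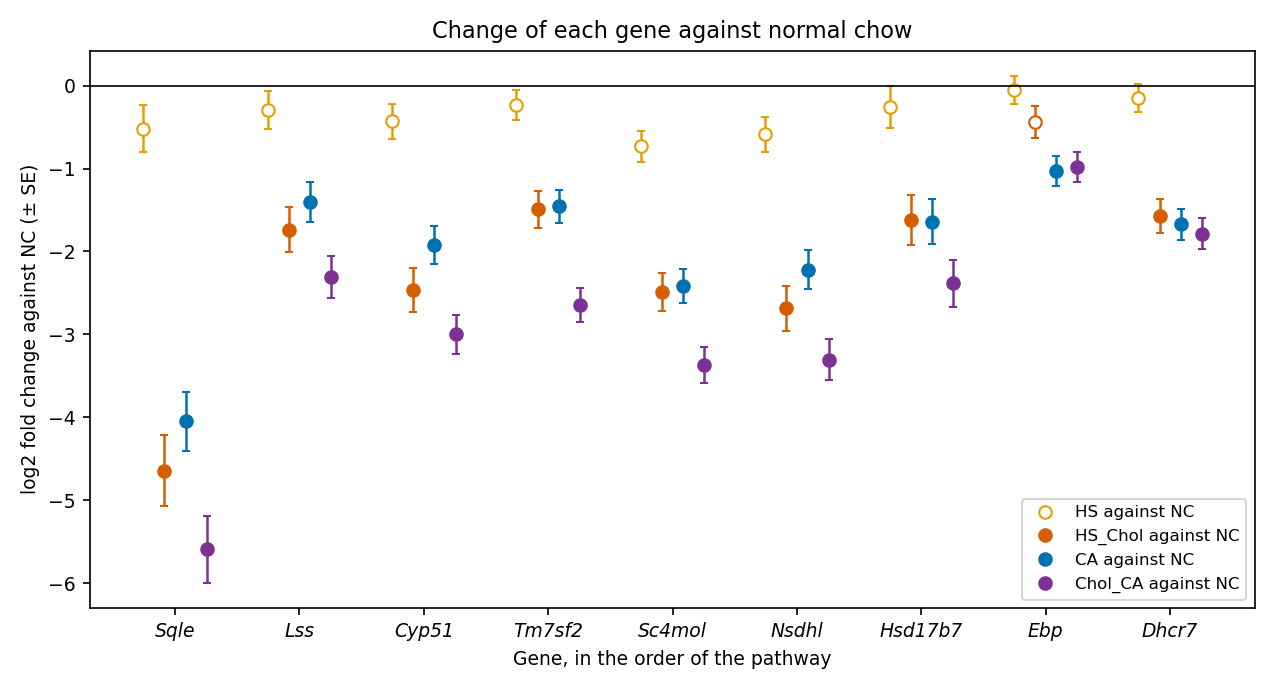
Log2 difference of each gene from NC in the 4 other diets, with genes in pathway order; bars are standard errors, and filled points passed an adjusted p of 0.05. The HS points are all open, and Sqle lies lowest in each of the other 3 diets.

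In HS_Chol, CA and Chol_CA, 9 of 9 genes had every library below every NC library. The same held for 5.57%, 6.38% and 9.56% of all genes. By the edgeR test against HS, 9 of 9 were called lower in CA (6.33% of all genes called lower) and in Chol_CA (10.1%). In HS_Chol against HS 8 of 9 were called lower (0.651%).

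The order of the diets by mean level was NC, HS, CA, HS_Chol and Chol_CA for 6 genes: Sqle, Lss, Cyp51, Tm7sf2, Sc4mol and Nsdhl. For Hsd17b7 the order of CA and HS_Chol was turned, for Dhcr7 likewise, and for Ebp HS_Chol stood above Chol_CA and CA. Between NC and HS, the first neighbours, no gene passed, although all 9 log2 differences were negative. The step from HS to the next diet passed for 8 genes and not for Ebp, for which no step between neighbours passed. Between CA and HS_Chol, which share neither cholesterol nor cholic acid, 0 of 9 genes passed in either direction (3.19% of all genes were called lower and 4.69% higher in HS_Chol), with 1 lower and 1 higher at an unadjusted p under 0.05, a share near the 8.91% and 10.4% of all genes at that threshold. Their median log2 difference was -0.07, and the values ran from -0.59 ± 0.44 for Sqle (adjusted p = 0.534) to 0.59 ± 0.19 for Ebp (adjusted p = 0.0681). Ebp passed at 0.00375 without the CA library numbered 0.

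Whether Sqle changed by more than the others was asked of ratios within libraries, which do not depend on library size. Sqle had the largest fall in these same libraries, so the p-values do not test a choice made beforehand. The ratios all share the reads of Sqle and are not independent of one another. For each of the 8 other genes the log2 ratio of Sqle to it was compared between diets with an exact two-sided permutation test over libraries. In CA against NC all 8 ratios were lower without overlap, with log2 differences of -3.21 to -1.89, and each had an exact p of 0.0286 (0.0286 after adjustment over the 8), the smallest that 4 against 4 libraries can give. In Chol_CA against NC all 8 were lower without overlap, from -4.66 for Ebp to -2.31 for Sc4mol, again with an exact p of 0.0286. In HS_Chol against NC the 8 differences ran from -4.20 to -1.95 without overlap, at an exact p of 0.0571, the smallest that 3 against 4 libraries allow and above 0.05. Against HS, all 8 were lower in HS_Chol, by -3.65 to -1.92 (exact p = 0.0357, the smallest possible). In HS against NC 7 of the 8 differences were negative and 0 passed. In Chol_CA against CA all 8 were negative, between -1.46 and -0.15, all overlapped, and 0 passed (adjusted exact p from 0.343 to 0.8).

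Cholesterol was added to a sucrose diet and to a cholic acid diet, and the same 9 genes can be compared on both bases. On sucrose, HS_Chol against HS, 8 of 9 fell (0.651% of all genes called lower), with Ebp the exception at -0.38 ± 0.19 (adjusted p = 0.395). All 9 had every HS_Chol library below every HS library, against 5.43% of all genes. The median log2 difference was -1.44, from -4.13 ± 0.42 for Sqle to -0.38 for Ebp. The call for Hsd17b7 (-1.36 ± 0.29, adjusted p = 0.0117) was lost without the HS_Chol library numbered 0 (adjusted p = 0.0715).

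On cholic acid, Chol_CA against CA, 6 of 9 fell (7.8% of all genes called lower): Sqle, Lss, Cyp51, Tm7sf2, Sc4mol and Nsdhl. The median log2 difference was -0.95, and 5 of 9 did not overlap (7.22% of all genes). Tm7sf2 fell by 1.19 ± 0.20 (adjusted p = 0.00044), Nsdhl by 1.09 ± 0.24, Cyp51 by 1.08 ± 0.23, Sc4mol by 0.95 ± 0.21 and Lss by 0.90 ± 0.25. Sqle fell by 1.54 ± 0.42 (adjusted p = 0.0124), with CA and Chol_CA libraries overlapping, and its call was lost without the CA library numbered 3 (-1.22, adjusted p = 0.0583). In a fit of only these diets the calls of Sqle (adjusted p = 0.0663) and Lss (0.0658) were lost, and with only the libraries that had more reads on long transcripts that of Nsdhl was (0.0528). Hsd17b7 had -0.74 ± 0.28 (adjusted p = 0.0628) and passed at 0.0313 without the Chol_CA library numbered 3. Ebp and Dhcr7 had values near 0: 0.04 for Ebp (95% interval -0.33 to 0.42) and -0.11 for Dhcr7 (95% interval -0.50 to 0.27).

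**Figure D3:**
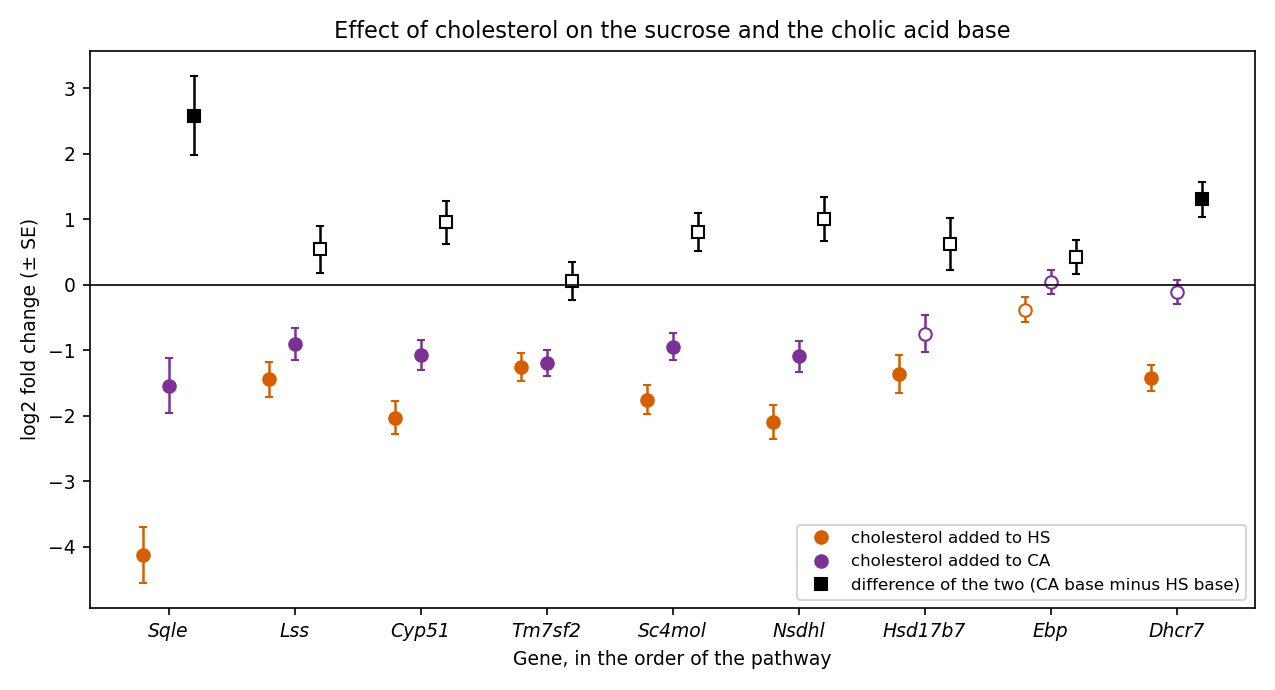
Log2 difference made by 2% cholesterol on the sucrose base (HS_Chol against HS) and on the cholic acid base (Chol_CA against CA) for each gene; bars are standard errors, and filled points passed an adjusted p of 0.05. Black squares are the difference between the bases, the cholic acid value minus the sucrose value, and not a rise of the gene. The bases lie furthest apart for Sqle and Dhcr7 and nearly coincide for Tm7sf2.

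The difference between the bases was tested as an interaction, positive where cholesterol lowered a gene less on cholic acid than on sucrose. Sqle (2.58 ± 0.60, adjusted p = 0.0139) and Dhcr7 (1.30 ± 0.27, adjusted p = 0.0047) passed, both higher, and 0 of 9 passed lower, against 2.47% of all genes called higher and 3.53% lower. At an unadjusted p under 0.05, 5 of 9 were higher, against 11.3% of all genes. All 9 values were above 0, with a median of 0.81 against 0.06 over all genes. Nsdhl (1.01 ± 0.34, adjusted p = 0.085), Cyp51 (0.96 ± 0.33, adjusted p = 0.0907) and Sc4mol (0.81 ± 0.29, adjusted p = 0.112) did not pass. For Tm7sf2 the interaction was 0.06, with a 95% interval of -0.54 to 0.67. Both calls held in every fit that left out a library. With only the 8 libraries that had fewer reads on long transcripts, HS_Chol and CA kept 1 library each, so no call is given there. The interaction values in that subset were 2.71 for Sqle and 1.02 for Dhcr7. The level from which cholesterol acted also differed: Sqle stood at 47.2 ± 16.9 CPM (SD, n = 5) in HS and at 4.08 ± 2.53 CPM (SD, n = 4) in CA, and Dhcr7 at 118 ± 9.98 and 41.4 ± 10.4 CPM.

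The pair of diets with cholesterol differed in their base. In Chol_CA against HS_Chol, Tm7sf2 (-1.16 ± 0.22, adjusted p = 0.0012) and Sc4mol (-0.88 ± 0.22, adjusted p = 0.0088) fell, 2 of 9, against 6.5% of all genes called lower. All 9 values were negative, with a median of -0.62, and 7 of 9 did not overlap (12.5% of all genes). The count moved with single libraries: 1 gene without the HS_Chol library numbered 0, where Sc4mol had an adjusted p of 0.053, and 5 genes without the Chol_CA library numbered 3.

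Levels of different genes were compared per kilobase of the principal transcript. Ebp was the highest of the 9 in all 5 diets, at 142 ± 28.4 CPM per kb (SD, n = 4) in NC and 72.1 ± 5.46 (SD, n = 4) in Chol_CA. Sqle stood 7th of 9 in NC at 24.5 ± 2.16 CPM per kb and last in HS_Chol, CA and Chol_CA, at 0.978, 1.48 and 0.495 CPM per kb. Of the summed level of the 9 per kilobase, Ebp made up 28.1% (NC), 33.4% (HS), 41.8% (CA), 55.3% (HS_Chol) and 58.2% (Chol_CA), and Sqle went from 4.94% in NC to 0.397% in Chol_CA.

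**Figure D4:**
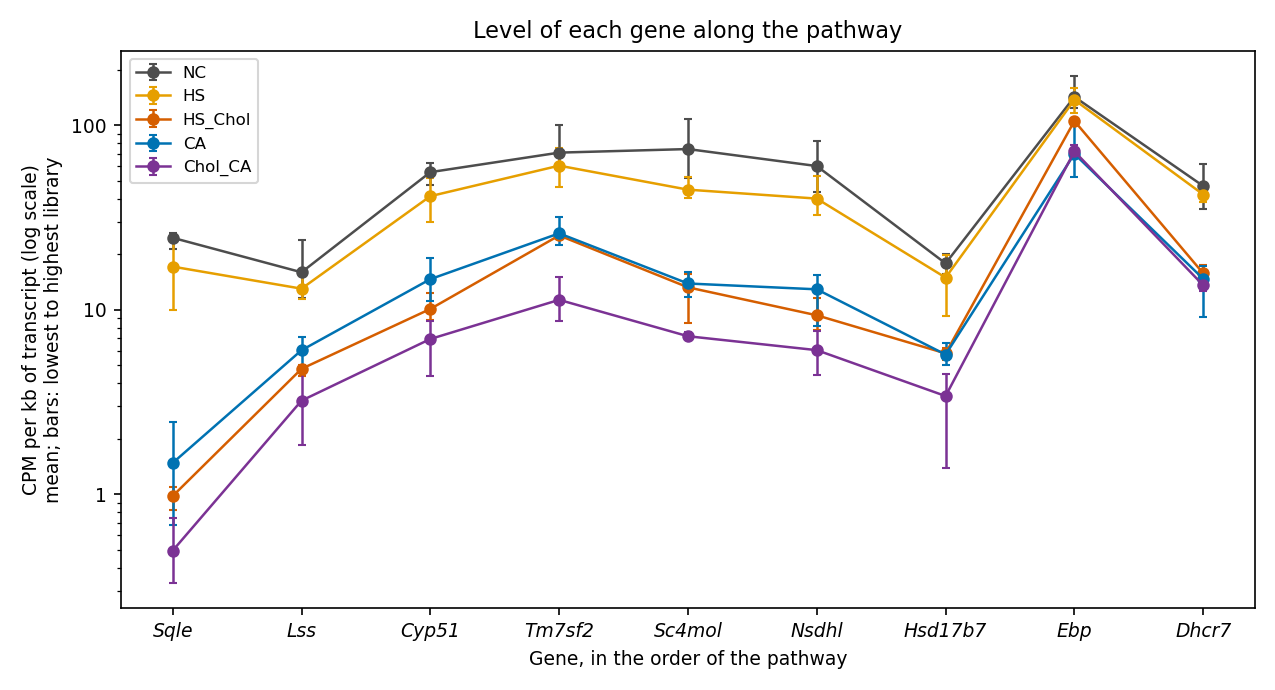
Mean CPM per kilobase of each gene in pathway order for the 5 diets (log axis); bars run from the lowest to the highest library, and lines only join the genes for reading. Ebp is highest in all diets, and Sqle drops from 24.5 in NC to 0.495 in Chol_CA.

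Other genes act on the same sterols. The 3 reported here are Sc5d, Lbr and 0610007P14Rik (now Erg28). Against NC, 0 of 3 passed in HS, 3 fell in HS_Chol, 2 in CA and 2 in Chol_CA. Of all genes, 0.437%, 0.564%, 4.61% and 9.35% were called lower in these diets, in that order. Sc5d, the desaturase next to Dhcr7 in the pathway, had log2 differences of -0.99 ± 0.24 in HS_Chol and -1.95 ± 0.22 in Chol_CA, and fell in CA too (adjusted p = 0.00015). 0610007P14Rik, a scaffold of the demethylating complex, had -0.80 ± 0.17, -0.67 ± 0.15 and -1.01 ± 0.15 in HS_Chol, CA and Chol_CA.

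Lbr, a nuclear envelope protein with the same sterol reductase activity as Tm7sf2, gives a contrast to it. Its NC libraries had 12.0, 9.69, 13.7 and 11.8 CPM, and its Chol_CA libraries 7.68, 10.5, 8.99 and 10.8 CPM. They overlapped, and the log2 difference was -0.31 ± 0.15 (adjusted p = 0.159), where Tm7sf2 had -2.65. Lbr fell in HS_Chol alone (-0.69 ± 0.17, adjusted p = 0.0373), and its CA value was -0.44 ± 0.15 (adjusted p = 0.0827).

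Upstream of squalene, 8 of the 9 listed genes of the mevalonate arm were tested. Against NC, 0 of 8 passed in HS, 7 fell in HS_Chol (0.564% of all genes called lower), 7 in CA (4.61%) and all 8 in Chol_CA (9.35%). Cholesterol lowered 6 of 8 on sucrose (0.651% of all genes called lower) and 5 of 8 on cholic acid (7.8%). Fdps, which makes farnesyl diphosphate, had log2 differences of -2.58 ± 0.33, -2.70 ± 0.29 and -3.61 ± 0.31 from NC in HS_Chol, CA and Chol_CA. Its interaction was 1.59 ± 0.42 (adjusted p = 0.0281). With Mvk, mevalonate kinase (1.28 ± 0.29, adjusted p = 0.0124), Fdps was among the 2 of 8 that passed, both higher (2.47% of all genes).

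Of 7 genes that control SREBP2 or carry sterol, 0 passed in HS or HS_Chol, 4 fell and 1 rose in CA, and 4 fell in Chol_CA. Of all genes, 4.61% were called lower and 5.22% higher in CA, and 9.35% lower in Chol_CA. In Chol_CA these were Insig1 (-2.38), which retains SREBP2 in the endoplasmic reticulum, Stard4 (-2.23), a sterol carrier, Scap (-1.03), which escorts SREBP2, and Srebf2, the gene of SREBP2 itself. Insig2, a relative of Insig1, was the gene that rose in CA (0.87). Of 6 genes of sterol efflux and its control, Abcg5 and Abcg8, the pair of transporters that moves sterol into bile, rose in HS_Chol (2.06 and 1.81, with 1.71% of all genes called higher) and in CA (1.59 and 1.35, with 5.22%). Both rose in Chol_CA as well (2.19 and 1.80, with 15%), together with Mylip (0.96), a ubiquitin ligase under control of the sterol sensors LXR. Their interactions were -1.03 for Abcg5 and -1.26 for Abcg8, and both passed (3.53% of all genes called lower). The cholesterol differences were smaller on cholic acid than on sucrose.

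Across all 20 libraries, the genes whose log2 level was most like the mean of the 9 were Fdps (Pearson r = 0.989), Acss2 (0.973), Hmgcs1 (0.967), Mmab (0.964) and Rdh11 (0.955). Within the set, each gene was set against the mean of the other 8: Nsdhl had the highest r, 0.987, Ebp the lowest, 0.787, and the others lay between 0.923 and 0.974. These values describe points that share diets, depth and length trend, and the diets fall into separate levels, so no p is given.

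Summed marker levels of some other cell types differed between the diets. The summed level of 10 Kupffer cell markers was 103 to 163 CPM in NC, 243 to 616 in HS_Chol, 252 to 771 in CA and 946 to 2588 in Chol_CA. The markers of monocyte-derived macrophages went from 69.7 to 141 CPM in NC to 282 to 909 in Chol_CA, and were at 75.3 to 106 in HS_Chol. Stellate cell and fibroblast markers went from 239 to 495 CPM in NC to 520 to 879 in Chol_CA, and were at 219 to 357 in CA. Bile duct cell markers went from 56.6 to 100 CPM in NC to 124 to 366 in Chol_CA. Spp1 is in both the bile duct and the macrophage list. Endothelial cell markers overlapped, at 156 to 311 CPM in NC and 140 to 371 in Chol_CA. Neutrophil markers were at 0.286 to 2.13 CPM in NC, with Ly6g, Retnlg and Cxcr2 at 0 reads, and at 10.5 to 70.0 CPM in Chol_CA. Of the 9 hepatocyte markers, 0 were called lower in HS and HS_Chol, 1 in CA (4.61% of all genes) and 3 in Chol_CA (9.35%). The part of cell composition in the fall of the 9 enzymes was not tested.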

How the data were processed

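Whole-liver total RNA had been made into strand-specific TruSeq libraries from 100 ng and sequenced from 1 end with 50 bp reads, per the labels' protocols. The authors deposited raw read counts per gene symbol, made with STAR 2.6.1c on mm10 per the submitters' processing notes. The annotation release and the strand counted are not given in the sources used here. Columns carry a diet name, and 3 value columns that matched no label were left out. The 9 genes, the gene lists and the tests were chosen with earlier results of these data known. Every one of the 9 is named, and any gene of the lists may be; some listed genes are not reported here.

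The test of these counts was edgeR's (version 4.0.16, R 4.3.3, with TMM, filterByExpr, robust quasi-likelihood, 1 mean per diet over 20 libraries), adjusted over 12595 genes and called at an adjusted p under 0.05. Errors are SE for log2 differences and SD for levels. The common biological coefficient of variation was 0.235. Totals of 6110484 to 10244277 reads make 3 reads equal to 0.293 to 0.492 CPM in a library, for counting error only. Ratios used 0.5 added reads and an exact permutation test. The 31 pairs of libraries of a diet differed by at least 4.85 times the sampling noise, so none was counted as a repeat sequencing of the same library. This measure cannot tell repeat preparations of a liver from separate livers. Gene positions and lengths came from GENCODE on GRCm38 and promoters from RefSeq. No other gene shared 300 bp of a member's transcript at 95% identity or more, apart from Vps51 with Tm7sf2. Shorter matches of at least 50 bp, the read length, were found in 59 other genes for Sc4mol (longest 203 bp) and 52 for Dhcr7 (longest 227 bp). For the other members they were found in 0 to 3 genes. The part of such matches in the counts was not tested. The procedure was tested on simulated counts. Alternatives were other scaling, filters, estimates, DESeq2 1.42.0, subsets of libraries and leaving out each library.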

Additional observations from a re-analysis of the deposited data

Results flagged for a closer look

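Among 36 groups of at least 4 libraries, 3 had a library far from the others of its diet, and chance flags about 1 in 20 groups. Tm7sf2 was at 148 CPM in the NC library numbered 3, against 88.5 to 91.7 CPM in the other 3. Dhcr7 was at 25.9 CPM in the CA library numbered 2, against 45.3 to 48.6 CPM, and at 44.8 CPM in the Chol_CA library numbered 2, against 35.5 to 36.4 CPM. The effect of cholesterol differed between the sucrose and the cholic acid base for Sqle (2.58 on the log2 scale) and for Dhcr7 (1.30), each by a test of the difference itself.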

How the results depend on the processing

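Leaving out each library in turn gave 8 of 9 genes called lower for HS_Chol against NC, 9 for CA and for Chol_CA against NC or HS, 7 to 8 for HS_Chol against HS and 5 to 7 for Chol_CA against CA. The range was 0 to 1 lower for HS against NC, 1 to 5 lower for Chol_CA against HS_Chol, 0 to 1 higher for HS_Chol against CA and 2 to 3 higher for the interaction. HS against NC gave 1 gene lower with DESeq2 and with the trend's sign as a covariate. HS_Chol against CA gave 1 higher with DESeq2, with the trend term and with positive-trend libraries only, which also gave 1 lower. The interaction gave 5 higher with positive-trend libraries. Chol_CA against HS_Chol gave 4 lower with the trend term. Using only the libraries of negative trend, an alternative chosen after seeing the data, left 1 library each in NC, HS_Chol and CA. No call is therefore given for that subset. There the log2 difference of Hsd17b7 was -1.568 for HS_Chol against NC and -1.205 for HS_Chol against HS. It was -1.63 for CA against NC and -1.267 for CA against HS. That of Ebp was -0.88 for CA against NC and -0.55 for CA against HS. The causes were not tested.

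Signs turned only for values near 0 or in small subsets, none of them called. With no filter, Ebp for Chol_CA against CA was -0.0113 and Hsd17b7 for HS_Chol against CA was -0.0041. With positive-trend libraries, HS against NC gave Lss 0.087, Hsd17b7 0.0172 and Dhcr7 0.0407, Chol_CA against CA gave Dhcr7 0.00013, and HS_Chol against CA gave Tm7sf2 0.0861. With the trend term, Ebp for Chol_CA against CA was -0.0183 and the Tm7sf2 interaction -0.0308. With negative-trend libraries these were -0.42 and -0.42, and HS_Chol against CA gave Sqle 0.65, Lss 0.10, Sc4mol 0.12 and Dhcr7 -0.0849. Over the libraries left out, HS against NC ran from -0.12 to 0.0881 for Ebp and from -0.27 to 0.0013 for Dhcr7. HS_Chol against CA ran from -0.0548 to 0.0712 for Hsd17b7, -0.0945 to 0.19 for Dhcr7, -0.22 to 0.16 for Sc4mol and -0.13 to 0.0722 for Tm7sf2. Ebp for Chol_CA against CA ran from -0.12 to 0.27, and the Tm7sf2 interaction from -0.14 to 0.17. The Sqle ratio in HS against NC ran from -0.10 to 0.28 to Sc4mol and from -0.18 to 0.14 to Nsdhl, and that to Tm7sf2 in Chol_CA against CA from -0.54 to 0.20. No paired analysis was possible because the columns are numbered from 0 and the labels from 1, so columns carry no labelled replicate number. With 8 to 21 reads of Sqle per Chol_CA library, differences between its lowest levels are limited by depth.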
